A study of Homo sapiens with 10 samples.

Results

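Metallothioneins are small, cysteine-rich proteins that bind zinc and copper, hold the pool of free zinc low and react with oxidants. Their genes are switched on by MTF1, a zinc finger transcription factor that senses zinc and binds short metal response elements in their promoters, and MTF1 acts in the same way on the zinc exporter gene SLC30A1. In the brain, MT1 and MT2 genes are known for their expression in astroglia, and MT3 is the form typical of nervous tissue. Described here are 8 of the 60898 rows of the gene count table, taken by symbol: the metallothionein genes MT1E, MT1F, MT1G, MT1M, MT1X, MT2A and MT3, and MTF1. Of these 8, 7 had at least 1 count in some library and 4 passed the filter on low counts (MT1X, MT2A, MT3 and MTF1). MT1M had 0 counts in all 10 libraries.

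The libraries were labelled as neural progenitor cells from H1, an established line of human embryonic stem cells, and fell into 5 groups of 2: STAMBP knockout cells given CFLAR (KO+CFLAR), STAMBP knockout cells given STAMBP (KO+STAMBP), the knockout lines KO1 and KO2, and unedited cells (WT). STAMBP encodes a deubiquitinase of the endosomal sorting pathway, and CFLAR an inhibitor of death receptor signalling. The labels name no promoter for the constructs and do not give the knockout line that received them. They also do not say that the libraries of a group are separate cultures, so each p-value measures only the spread between libraries, which may be technical. Totals were 16495116 to 20832700 counts per library, and 3 counts, taken as the floor for a count of 0, came to 0.144 to 0.182 counts per 1000000 counts (CPM).

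STAMBP and CFLAR were read first as a check of the labels. STAMBP averaged 43.9 ± 2.09 CPM in the libraries labelled KO+CFLAR, 45.7 ± 3.62 CPM in KO+STAMBP, 17.1 ± 1.09 CPM in the knockout lines and 47.1 ± 2.73 CPM in WT (SD, n = 2 per group, and n = 4 for KO1 and KO2 together, as in all levels below). CFLAR averaged 32.1 ± 1.40 CPM in the libraries labelled KO+CFLAR, 34.2 ± 0.0648 CPM in KO+STAMBP, 233.8 ± 7.23 CPM in the knockout lines and 33.6 ± 2.85 CPM in WT. Against their name, the libraries labelled KO+CFLAR were near WT in both genes, without the low STAMBP of KO1 and KO2 and without raised CFLAR, so each direction given for them rests on the label.

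The cell type named by the labels was checked by its markers. All 10 neural progenitor markers were detected in every group, with a summed level of 4272 to 4307 CPM in the libraries labelled KO+CFLAR, 4187 to 4191 CPM in KO+STAMBP, 3123 to 3195 CPM in the knockout lines and 7311 to 7407 CPM in WT. Most of the knockout sum was VIM, NES and PAX6 (2080, 608 and 192 CPM, against 2247, 805 and 189 CPM in WT). SOX1, FABP7 and PTPRZ1 had 0.442, 0.410 and 3.42 CPM in the knockout lines, against 153, 1169 and 1958 CPM in WT. Detection of all 10 thus does not show that the knockout lines match the labelled cell type. The 12 epithelial markers summed to 57.2 to 59.1 CPM in the libraries labelled KO+CFLAR, 65.5 to 67.9 CPM in KO+STAMBP, 7815 to 8180 CPM in the knockout lines and 33.0 to 34.8 CPM in WT, where OVOL1 was at 0. The 9 neuron markers summed to 5757 to 5869 CPM in the libraries labelled KO+CFLAR, 5752 to 5807 CPM in KO+STAMBP, 755 to 779.5 CPM in the knockout lines, where NEUROD1 was at 0 in KO1 and NEUROD6 in KO2, and 3680 to 3775 CPM in WT. The 6 mesenchyme markers, all detected, summed to 103 to 107 CPM in the libraries labelled KO+CFLAR, 128 to 132 CPM in KO+STAMBP, 1896 to 1977 CPM in the knockout lines and 123 to 129 CPM in WT. Most of the knockout sum was COL1A1 and COL1A2 (949 and 960 CPM, against 6.91 and 68.9 CPM in WT). DCN and PDGFRB were lower in the knockout lines (0.0670 and 8.24 CPM) than in WT (19.9 and 20.7 CPM). COL3A1 and LUM had 4.54 and 5.99 CPM in the knockout lines, against 4.56 and 4.88 CPM in WT. The 6 choroid plexus markers summed to 344 to 354 CPM in the libraries labelled KO+CFLAR, 394 CPM in both KO+STAMBP libraries, 51.1 to 58.2 CPM in the knockout lines, where TTR was at 0 in KO2, and 34.3 to 36.9 CPM in WT. Most of the knockout sum was CLIC6 (50.7 CPM, against 6.95 CPM in WT), whereas TTR averaged 0.0128 CPM there and 19.9 CPM in WT. The knockout lines thus differed from the other 3 groups in the sums of epithelial, mesenchyme, neuron and neural progenitor markers. The rescues differed from WT in the sums of choroid plexus, neuron and neural progenitor markers. The part of this makeup in the metallothionein values below was not tested. In such bulk RNA, fewer cells of a type and less RNA per cell cannot be told apart.

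The promoters of MT2A and MT1X are shown because these are the most counted metallothionein genes here and their values went different ways. RefSeq's promoter table (GRCh38.p14) held 3 of the 8 members, MT2A, MT1X and MTF1. Capitals mark the core of the metal response element, searched on both strands as TGCACNC and as TGCGCNC, in the 250 bases before each start site. The windows are chr16:56608334-56608583 for MT2A and chr16:56682220-56682469 for MT1X, both on the plus strand. RefSeq starts these genes downstream of the GENCODE release 29 starts given below, so the windows overlap the GENCODE genes.
MT2A: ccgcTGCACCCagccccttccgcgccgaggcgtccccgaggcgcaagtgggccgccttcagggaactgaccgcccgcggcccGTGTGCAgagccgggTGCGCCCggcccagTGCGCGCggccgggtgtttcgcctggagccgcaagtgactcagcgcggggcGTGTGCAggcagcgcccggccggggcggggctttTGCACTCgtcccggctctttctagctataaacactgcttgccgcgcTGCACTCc
MT1X: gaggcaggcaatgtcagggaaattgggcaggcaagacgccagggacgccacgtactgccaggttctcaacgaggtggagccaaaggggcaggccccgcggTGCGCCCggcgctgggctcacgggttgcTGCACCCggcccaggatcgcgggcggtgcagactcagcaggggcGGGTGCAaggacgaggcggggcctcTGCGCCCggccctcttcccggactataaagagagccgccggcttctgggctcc
The MT2A window held 7 cores, 5 spelled TGCACNC and 2 spelled TGCGCNC, and the MT1X window held 4. None was found in the 250 bases before MTF1 (chromosome 1, 37859593 to 37859842, minus strand). Of 35116 promoters of this length in the table, 24.8% held at least 1 core, 0.37% held at least 4 and 0.0313% held at least 7. Other metallothionein genes that held cores had no counts at all: the windows of MT1B, MT1H and MT4 held 3, 8 and 3. A match describes the letters of the window only.

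MT2A, on chromosome 16 (56608199 to 56609497, plus strand, GRCh38; ENSG00000125148), encodes the widely expressed metallothionein 2. It held 35 and 31 counts (1.72 and 1.49 CPM) in the libraries labelled KO+CFLAR, 28 and 38 (1.54 and 2.17 CPM) in KO+STAMBP, 31 and 30 (1.58 and 1.81 CPM) in KO1, 25 and 32 (1.52 and 1.69 CPM) in KO2, and 76 and 112 (4.61 and 5.69 CPM) in WT. Both WT libraries lay above all of the other 8, which overlapped one another. MT2A thus fell to 1.65 ± 0.127 CPM in the knockout lines, against 5.15 ± 0.766 CPM in WT, a log2 change of -1.47 ± 0.22 (SE) or 0.362-fold (edgeR quasi-likelihood test, Benjamini-Hochberg adjusted p = 2.19e-05). The log2 changes use TMM scaling, whereas CPM divides by the total count alone, so the ratio of 2 CPM means can differ from the fold.

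Each knockout line taken alone gave a like change of MT2A against the same WT libraries, -1.44 ± 0.26 in KO1 (edgeR adjusted p = 0.000175, where 72.9% of all tested genes were called) and -1.50 ± 0.26 in KO2 (adjusted p = 0.000133, where 73.1% were called). In neither rescue was a return towards WT detected. Relative to the knockout lines, MT2A differed by -0.04 ± 0.25 on the log2 scale in KO+STAMBP (95% interval -0.58 to 0.49, edgeR adjusted p = 0.877) and by -0.24 ± 0.25 in the libraries labelled KO+CFLAR (interval -0.77 to 0.30, adjusted p = 0.393). Both intervals exclude a rise of the size of the knockout's fall. Relative to WT, MT2A was lower by -1.51 ± 0.26 in KO+STAMBP (edgeR adjusted p = 0.000343) and by -1.70 ± 0.26 in the libraries labelled KO+CFLAR (adjusted p = 0.000125). Among all tested genes ranked by CPM, 29.01% lay below MT2A in the knockout lines and 38.7% in WT, so it was a gene of low to middling level in both. The rescues, in which MT2A stayed below WT, also carried the higher choroid plexus markers given above, and the part of that difference in MT2A was not tested.

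**Figure D1:**
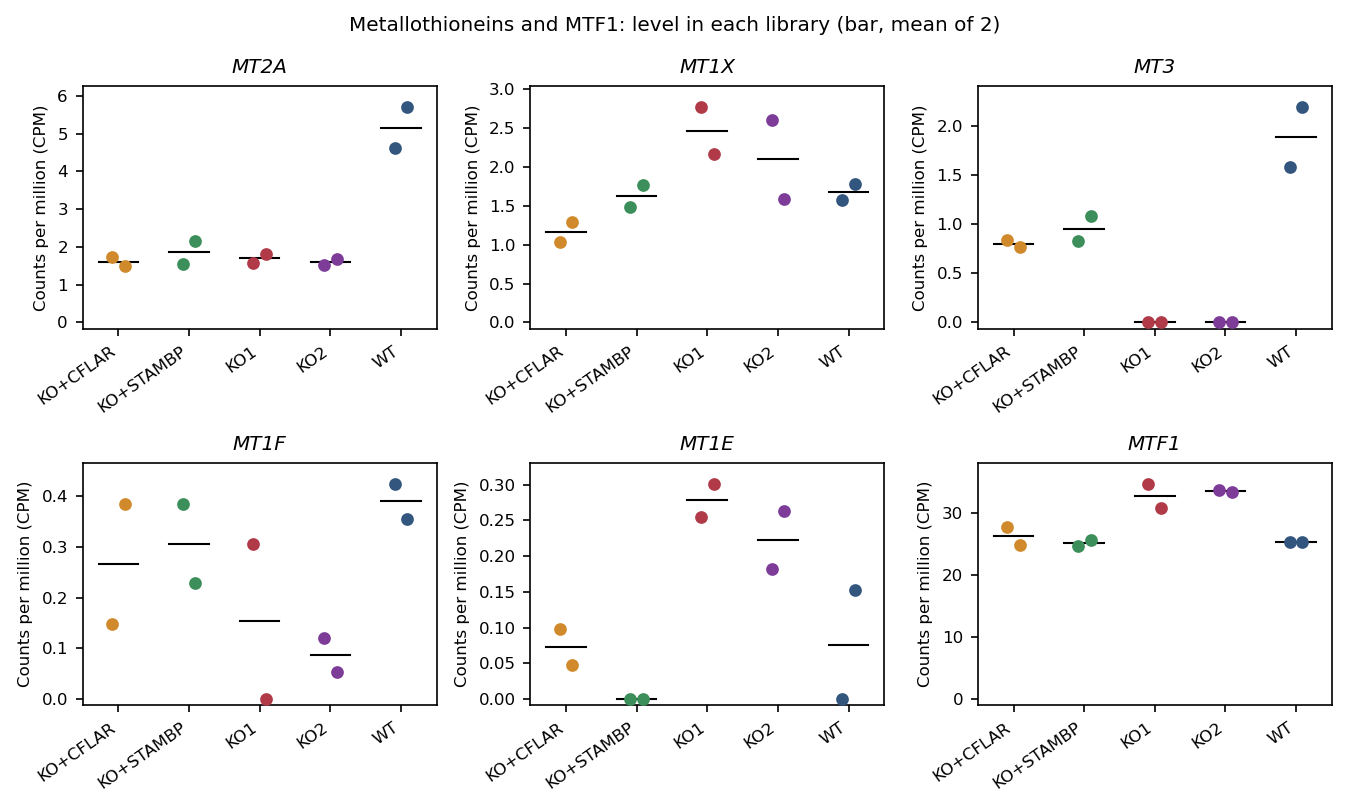
Level of each metallothionein with counts in several libraries, and of MTF1, in CPM; each point is a library and each bar the mean of the 2 libraries of a group. MT2A is high in WT alone (4.61 and 5.69 CPM), MT3 is at 0 in all 4 knockout libraries, and MTF1 is highest in the knockout lines (30.8 to 34.7 CPM).

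In KO vs WT, 3 of the 4 tested members were called, 1 higher and 2 lower, beside 76.2% of all 21063 tested genes (36.8% higher and 39.4% lower). The lower ones include MT3, which passed the filter on low counts only through the groups in which it had counts. A share this close to the background says nothing particular of the members. Of all 8 members, 5 had CPM ranges that did not overlap between knockout and WT libraries (MT1E and MTF1 higher, MT1F, MT2A and MT3 lower), beside 80.2% of tested genes (33.5% higher and 46.7% lower). These shares are not alike, because only 4 of the 8 members passed the filter. For MT1E, KO2 replicate 1 and WT replicate 2 both held 3 counts (0.182 and 0.152 CPM), so only library depth set them apart.

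MT1X, at the far end of the cluster (chromosome 16, 56682424 to 56684196, plus strand; ENSG00000187193), encodes one of the metallothionein 1 proteins. It had 21 and 27 counts (1.03 and 1.30 CPM) in the libraries labelled KO+CFLAR, 27 and 31 (1.49 and 1.77 CPM) in KO+STAMBP, 54 and 36 (2.76 and 2.17 CPM) in KO1, 43 and 30 (2.61 and 1.58 CPM) in KO2, and 26 and 35 (1.58 and 1.78 CPM) in WT. Of the 4 knockout libraries, 3 lay above both WT libraries, and KO2 replicate 2 lay beside the lower one, so the groups overlapped. The mean was 2.28 ± 0.528 CPM in the knockout lines and 1.68 ± 0.143 CPM in WT, a log2 difference of 0.61 ± 0.28 that missed the threshold (edgeR adjusted p = 0.064). Without KO2 replicate 2 it was 0.77 and was called (edgeR adjusted p = 0.0231).

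Against the knockout lines, MT1X fell by 0.69 ± 0.28 on the log2 scale in KO+STAMBP, to 1.63 ± 0.199 CPM (edgeR adjusted p = 0.0382). This call was lost without KO+STAMBP replicate 1 or 2, KO1 replicate 1 or KO2 replicate 1 (edgeR adjusted p = 0.201, 0.0785, 0.0942 and 0.139, of a range of 0.0135 to 0.201 over the 10 libraries left out in turn) and with DESeq2 (adjusted p = 0.0813). In the libraries labelled KO+CFLAR it fell by 1.16 ± 0.29, to 1.16 ± 0.185 CPM (edgeR adjusted p = 0.00236). Neither rescue was shown to differ from WT in MT1X: the log2 difference was -0.08 ± 0.33 in KO+STAMBP (interval -0.80 to 0.63, edgeR adjusted p = 0.886) and -0.55 ± 0.34 in the libraries labelled KO+CFLAR (interval -1.28 to 0.18, adjusted p = 0.247). The interval of KO+STAMBP still allows a rise of the size measured in the knockout lines, and that of the libraries labelled KO+CFLAR does not. In KO+STAMBP vs KO, 3 of 4 members were called (1 higher and 2 lower) beside 77.9% of all tested genes (40.1% higher and 37.8% lower). In the libraries labelled KO+CFLAR vs KO also 3 of 4 were called (1 higher and 2 lower) beside 78% (40% higher and 38% lower). Both comparisons use the same knockout libraries. The member called higher in each was MT3, which passed the filter only through the groups in which it had counts.

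MT3 (chromosome 16, 56589074 to 56591088, plus strand; ENSG00000087250) encodes the metallothionein of nervous tissue, known to hold back neurite growth in culture. It had 17 and 16 counts (0.837 and 0.768 CPM) in the libraries labelled KO+CFLAR, 15 and 19 (0.826 and 1.08 CPM) in KO+STAMBP, 0 in each of the 4 libraries of KO1 and KO2, and 26 and 43 (1.58 and 2.18 CPM) in WT. The knockout libraries were thus the lowest, WT the highest and the rescues between them, with no overlap among these 3 levels. MT3 passed the filter on low counts only through the groups in which it had counts. With 3 counts over the 4 knockout libraries as the floor, MT3 fell in the knockout lines to a level at least 45.5-fold lower than in WT (edgeR adjusted p = 9.18e-07).

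Both rescues had MT3 reads again. With the same floor, the level measured in KO+STAMBP was at least 22.7-fold higher than in the knockout lines. In the libraries labelled KO+CFLAR it was at least 19.1-fold higher. These bounds, too, take the measured levels as exact. The edgeR tests of the fitted changes gave adjusted p = 1.02e-05 and 1.62e-05, with MT3 in the test only through the groups that had counts. Relative to WT, MT3 differed by -1.02 ± 0.44 on the log2 scale in KO+STAMBP, which missed the threshold (edgeR adjusted p = 0.0967). It fell by 1.25 ± 0.44 in the libraries labelled KO+CFLAR (edgeR adjusted p = 0.0456), a call lost with DESeq2 (adjusted p = 0.161) and whenever any library of WT or either rescue was left out (edgeR adjusted p = 0.0361 to 0.293 over the 10 libraries left out in turn). The rescues were not shown to differ from each other in MT3, with -0.23 ± 0.46 for the libraries labelled KO+CFLAR relative to KO+STAMBP (edgeR adjusted p = 0.914). Of the 4 tested members, 1 was called in KO+STAMBP vs WT, MT2A, which was lower, beside 34.9% of all tested genes (16.4% higher and 18.5% lower). In the libraries labelled KO+CFLAR vs WT 2 were called, MT2A and MT3, both lower, beside 33.7% (15.8% higher and 17.9% lower).

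Astroglial genes are given beside MT3 because astroglia are among the cells known to express it. Of the 14 on the list 13 were tested, and 4 rose and 7 fell in the knockout lines relative to WT, with a median log2 change of -1.72 beside -0.04 over all tested genes. Of all tested genes, 36.8% were called higher and 39.4% lower in this comparison. FABP7, a lipid carrier of radial glia, fell by 11.31 ± 0.08 on the log2 scale, the glutamate transporters SLC1A2 and SLC1A3 by 7.52 ± 0.09 and 4.14 ± 0.03, and the secreted chaperone CLU by 1.72 ± 0.04 (edgeR adjusted p below the threshold for each). The 4 that rose, outside the rule and named after their values were seen, were the lipoprotein gene APOE by 2.96 ± 0.08, angiotensinogen (AGT) by 2.49 ± 0.30, the gap junction gene GJA1 by 0.88 ± 0.03 and glutamine synthetase (GLUL) by 0.33 ± 0.03. The 7 astroglial markers summed to 846 to 887 CPM in the libraries labelled KO+CFLAR, 939 to 949 CPM in KO+STAMBP, 302.0 to 310.0 CPM in the knockout lines and 1195 to 1246 CPM in WT. The sum, like MT3, was lowest in the knockout lines and highest in WT, but not all of its genes ran this way. GJA1, the largest part of the sum in the knockout lines, had 327 ± 6.71 CPM in the libraries labelled KO+CFLAR, 445 ± 3.67 CPM in KO+STAMBP, 267 ± 2.24 CPM in the knockout lines and 164 ± 7.49 CPM in WT. The part of astroglial content in the MT3 values was not tested. GFAP, the intermediate filament protein of mature astrocytes, was not called (log2 0.65 ± 0.48 in the knockout lines relative to WT, edgeR adjusted p = 0.233) and is named outside the rule, after its value was seen.

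The remaining metallothioneins were near the floor. MT1E (chromosome 16, 56625475 to 56627112, plus strand; ENSG00000169715) had 2 and 1 counts in the libraries labelled KO+CFLAR, 0 and 0 in KO+STAMBP, 5 and 5 in KO1, 3 and 5 in KO2, and 0 and 3 in WT. Each knockout library thus had at least 3 counts and no other library had more than 3. Pooled over libraries, the knockout lines held 18 counts and WT 3, a CPM ratio of 3.03 with a 95% counting interval of 0.885 to 16.1. KO+STAMBP, with no count, was at least 2.99-fold below the level measured in the knockout lines, with 3 counts over its 2 libraries as the floor. This bound leaves out the counting error of the 18 knockout counts. The libraries labelled KO+CFLAR, with 3 counts, were at 0.290 times the knockout level (interval 0.0547 to 0.994). These intervals cover counting error only. Without the filter on low counts, edgeR called MT1E in KO+STAMBP vs KO (adjusted p = 0.0144) but not in KO vs WT (adjusted p = 0.312) nor in the libraries labelled KO+CFLAR vs KO (adjusted p = 0.242).

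MT1F (chromosome 16, 56657694 to 56660698, plus strand; ENSG00000198417) had 3 and 8 counts in the libraries labelled KO+CFLAR, 7 and 4 in KO+STAMBP, 6 and 0 in KO1, 2 and 1 in KO2, and 7 and 7 in WT. The pooled level in the knockout lines, from 9 counts, was 0.325 times that in WT, from 14 counts (counting interval 0.124 to 0.805), and the test without the filter did not call it (edgeR adjusted p = 0.142). In KO+STAMBP it was 2.45 times the knockout level (interval 0.923 to 6.69) and in the libraries labelled KO+CFLAR 2.13 times (interval 0.802 to 5.81). MT1F thus ran low where MT1E ran high, at counts too few for either to be called against WT. MT1G (chromosome 16, 56666731 to 56668065, minus strand; ENSG00000125144) had 5 counts in all: 1 in the libraries labelled KO+CFLAR, 4 in the knockout lines and 0 in KO+STAMBP and WT. MT1M (chromosome 16, 56632233 to 56633986, plus strand; ENSG00000205364) had none.

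MTF1 (chromosome 1, 37809567 to 37859620, minus strand; ENSG00000188786), the zinc sensor that drives these genes, was counted far more deeply. It had 562 and 518 counts (27.7 and 24.9 CPM) in the libraries labelled KO+CFLAR, 448 and 450 (24.7 and 25.6 CPM) in KO+STAMBP, 678 and 511 (34.7 and 30.8 CPM) in KO1, 556 and 634 (33.7 and 33.4 CPM) in KO2, and 418 and 497 (25.3 and 25.2 CPM) in WT. All 4 knockout libraries lay above the other 6, and the rescues overlapped WT. MTF1 rose to 33.1 ± 1.66 CPM in the knockout lines, against 25.3 ± 0.0646 CPM in WT, a log2 change of 0.57 ± 0.07 or 1.48-fold (edgeR adjusted p = 3.55e-06). KO1 and KO2 singly gave 0.54 ± 0.08 and 0.59 ± 0.08 (edgeR adjusted p = 2.48e-05 and 9.82e-06). Among all tested genes ranked by CPM, 69.4% lay below MTF1 in the knockout lines and 60.8% in WT.

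MTF1 fell in both rescues relative to the knockout lines, by 0.61 ± 0.07 on the log2 scale in KO+STAMBP (edgeR adjusted p = 1.59e-06) and by 0.54 ± 0.07 in the libraries labelled KO+CFLAR (adjusted p = 4.56e-06). Relative to WT the difference was -0.04 ± 0.08 in KO+STAMBP (interval -0.22 to 0.13, edgeR adjusted p = 0.736) and 0.03 ± 0.08 in the libraries labelled KO+CFLAR (interval -0.14 to 0.20, adjusted p = 0.825). These intervals exclude a change as large as the knockout's. MTF1 RNA was thus near its WT level in the rescues, and MT2A, a gene MTF1 is known to act on, stayed below WT in them. The activity of MTF1 was not measured, and its part in the MT2A values was not tested.

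**Figure D2:**
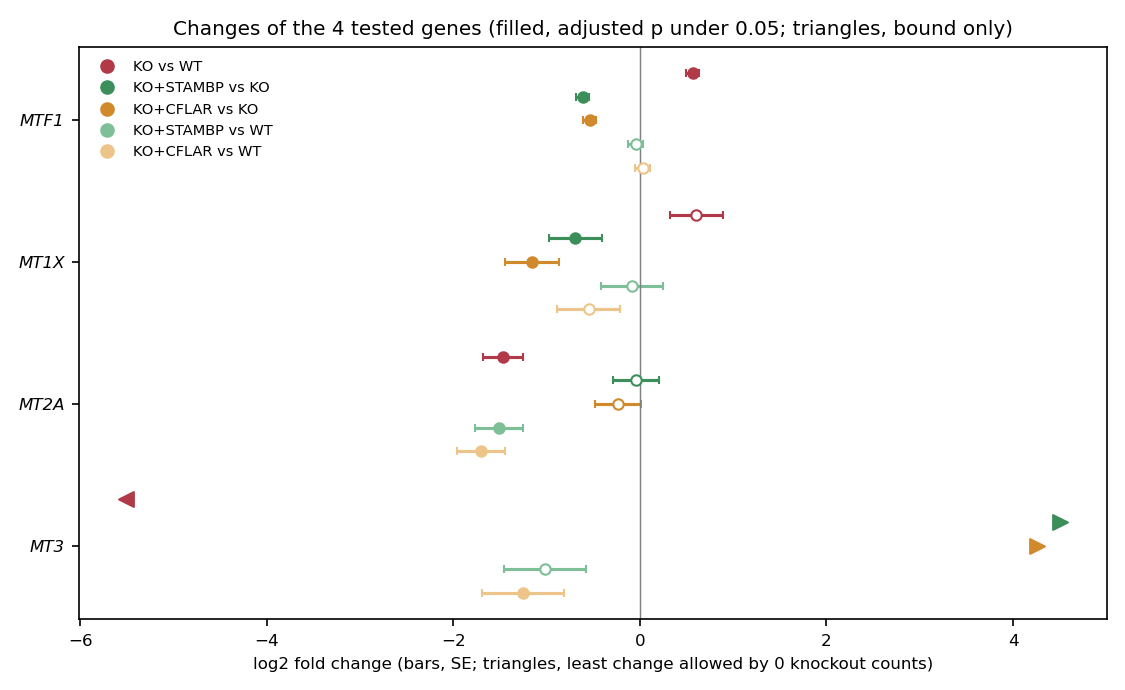
Log2 fold change of the 4 tested members in 5 comparisons, with SE bars; filled points had an edgeR adjusted p under 0.05, and triangles give the least change that 0 counts of MT3 in the knockout lines allow, with the other group taken at its measured level. MTF1 and MT1X both lie right of 0 in KO vs WT, where MT1X was not called, and left of 0 in the rescues vs KO, whereas MT2A lies near -1.5 in each comparison with WT.

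No member was called between the rescues, beside 1.09% of all tested genes, or between KO1 and KO2, beside 0.157%, with edgeR, and none had an unadjusted p under 0.05 in either. Over all genes, 2597 and 1196 had an unadjusted p under 0.05 in these comparisons, and DESeq2 called none of the members either. Between the lines, MT1X differed by 0.23 ± 0.31 on the log2 scale, MT2A by 0.06 ± 0.29 and MTF1 by -0.05 ± 0.08 in KO1 relative to KO2.

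The metallothionein counts as a whole came to 3.84 and 4.03 CPM in the libraries labelled KO+CFLAR, 4.24 and 5.24 CPM in KO+STAMBP, 4.96 and 4.28 CPM in KO1, 4.61 and 3.59 CPM in KO2, and 8.18 and 10.2 CPM in WT. Both WT libraries lay above the other 8, as for MT2A. The composition of this sum differed between groups. MT2A supplied 37.8% of the counts in the knockout lines (95% exact binomial interval 32.4 to 43.5) and 56.1% in WT (50.6 to 61.5). MT1X supplied 52.2% in the knockout lines (46.5 to 57.9) and 18.2% in WT (14.2 to 22.8), and MT3 0% in the knockout lines (upper limit 1.18) and 20.6% in WT (16.4 to 25.3). MT1X was thus the most counted metallothionein in the pooled knockout libraries and MT2A in WT. KO+STAMBP had 39.1% MT2A (31.7 to 46.8), 34.3% MT1X and 20.1% MT3, and the libraries labelled KO+CFLAR had 40.7% MT2A, 29.6% MT1X and 20.4% MT3. The rescues were thus near WT in the share of MT3 and near the knockout lines in that of MT2A. These intervals, too, cover counting error only.

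**Figure D3:**
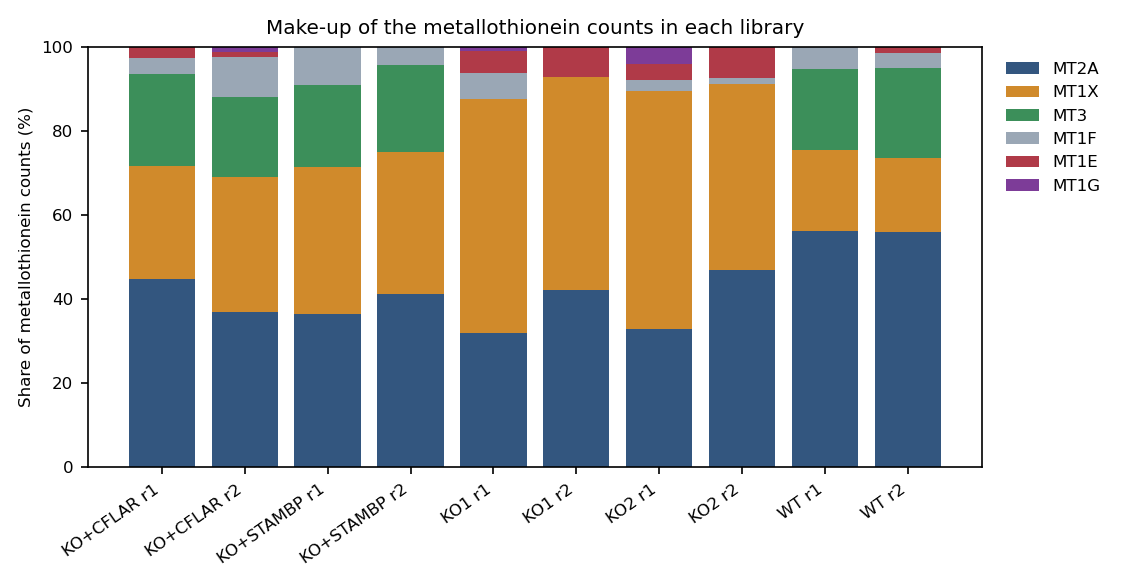
Share of the metallothionein counts, in percent, that each gene supplies in each of the 10 libraries (68 to 200 counts per library; r1 and r2 are the replicates). MT3 is missing from the 4 knockout libraries, where MT1X supplies 44.1% to 56.6%, and MT2A supplies 56.1% in WT.

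Levels of different genes were compared per kilobase of annotated exon. This length merges the exons of all annotated transcripts, and for MT2A and MT1X it covers the whole gene (1299 and 1773 bases). The longest annotated MT2A transcript has 903 bases, so its level may be understated here. In the knockout lines MTF1 stood at 4.13 ± 0.207 CPM per kb, MT1X at 1.29 ± 0.298, MT2A at 1.27 ± 0.0978, MT1E at 0.238, MT1G at 0.0776 and MT1F at 0.0636. In WT, MT2A stood at 3.96 ± 0.589 CPM per kb, MTF1 at 3.15 ± 0.00805, MT3 at 1.02 ± 0.234, MT1X at 0.946 ± 0.0805, MT1F at 0.206 and MT1E at 0.0724. MT1X and MT2A in the knockout lines, and MT3 and MT1X in WT, did not differ beyond their spread. On this scale the transcription factor was above every metallothionein in the knockout lines, and below MT2A in both WT libraries. This order depends on the lengths used.

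The annotation (GENCODE release 29) places 16 metallothionein genes and pseudogenes in 119.1 kb of chromosome 16 (56565049 to 56684196), 15 on the plus strand and MT1G on the minus strand. Over the 10 libraries MT2A held 438 counts, MT1X 330, MT3 136, MT1F 45, MT1E 24 and MT1G 5. Of 14 further metallothionein rows in the table, 12 had no count, MT1XP1 had 2 and MT1L had 1, so reads were concentrated in few members of the cluster. The genes are near copies of each other, and reads that match several could be divided among them by the counting. Of 50-base windows of the transcripts, 16.5% of those of MT1G, 9.87% of MT1M, 7.10% of MT1E, 3.64% of MT1X, 3.02% of MT2A and 1.22% of MT1F occurred in another metallothionein, and 0 of those of MT3 and MTF1. No 100-base window was shared. Of the genes with counts, MT1G and MT1E are the least certain on this ground, and the 0 of MT1M is uncertain too, and the read length is unknown here. The genes AC026461.1 and AL929472.4, which overlap MT1X and MTF1, had 0 counts.

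**Figure D4:**
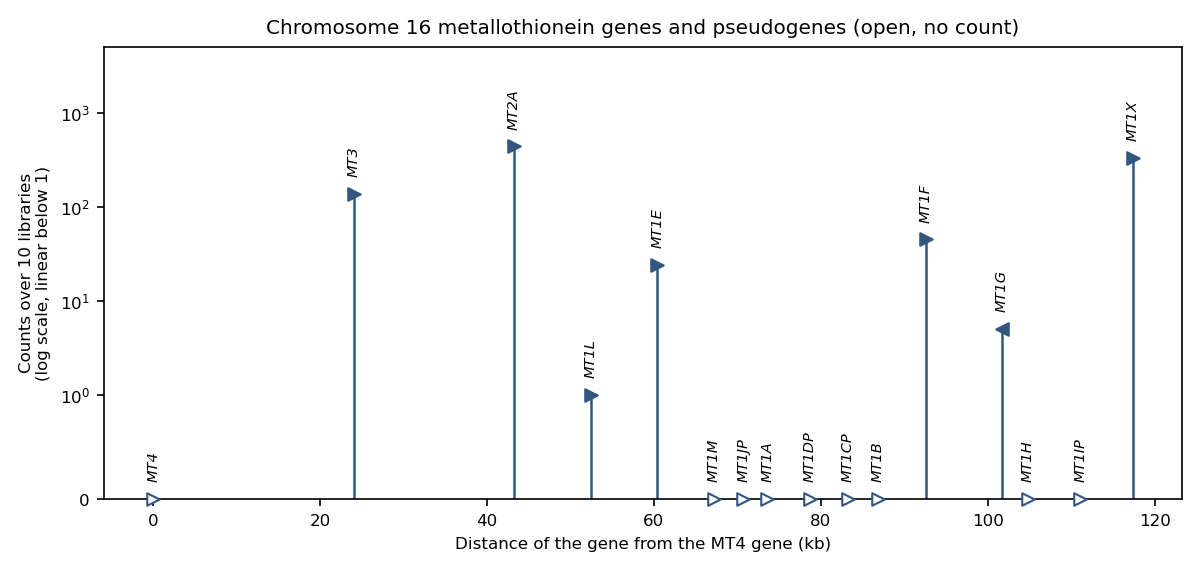
Counts over the 10 libraries, on a log axis that is linear below 1, of each metallothionein gene or pseudogene of chromosome 16 against its distance from MT4 in kb; triangles point along the strand and open ones had no count. MT2A (438), MT1X (330) and MT3 (136) stand above the other genes, and 9 of the 16 genes had no count.

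Genes beside the cluster were read from a list of 11. In KO vs WT, 10 were tested, 3 rose and 5 fell (median log2 change -0.94), beside 36.8% of all tested genes called higher and 39.4% lower. GNAO1, a G protein subunit of neurons, fell by 2.32 ± 0.03 on the log2 scale (edgeR adjusted p = 1.45e-16), and NUP93, a nuclear pore protein, by 1.56 ± 0.04. HERPUD1, of endoplasmic reticulum degradation, rose by 2.29 ± 0.06 (edgeR adjusted p = 8.61e-14). CPNE2, a copine, fell by 1.86 ± 0.04 (edgeR adjusted p = 3.2e-15). Its level was 47.2 CPM in the libraries labelled KO+CFLAR, 51.3 CPM in KO+STAMBP, 42.0 CPM in the knockout lines and 172.5 CPM in WT, so CPNE2, like MT2A, was high in WT alone. The neighbours did not share one direction.

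Zinc transporters of the SLC30 family carry zinc out of the cell or into vesicles. In KO vs WT 6 of the 8 tested of 10 rose and 2 fell (median log2 change 1.08), beside 36.8% of all tested genes called higher and 39.4% lower. SLC30A1, the plasma membrane exporter and a known MTF1 target, had a level of 29.8 ± 0.0503 CPM in the libraries labelled KO+CFLAR, 28.4 ± 2.25 CPM in KO+STAMBP, 89.7 ± 3.20 CPM in the knockout lines and 41.4 ± 1.33 CPM in WT. It rose by 1.29 ± 0.05 on the log2 scale in the knockout lines (edgeR adjusted p = 1.48e-11), and MT2A, also a known MTF1 target, fell. The part of MTF1 in either change was not tested. Relative to WT, SLC30A1 was lower by -0.58 ± 0.07 in KO+STAMBP (edgeR adjusted p = 1.36e-05) and by -0.49 ± 0.07 in the libraries labelled KO+CFLAR (adjusted p = 4.61e-05). The vesicle transporters SLC30A7, SLC30A6 and SLC30A5 rose by 1.65 ± 0.08, 1.24 ± 0.06 and 0.93 ± 0.06 in the knockout lines (edgeR adjusted p = 1.17e-10, 7.22e-11 and 2.5e-09). SLC30A10, named after its value was seen, fell by 2.34 ± 0.23 (edgeR adjusted p = 3.09e-07).

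The SLC39 family brings zinc into the cytosol. Of 14, 12 were tested in KO vs WT, 8 rose and 2 fell (median log2 change 0.86), beside 36.8% of all tested genes called higher and 39.4% lower. SLC39A8, which also carries manganese, averaged 4.18 CPM in the libraries labelled KO+CFLAR, 5.04 CPM in KO+STAMBP, 47.5 ± 1.28 CPM in the knockout lines and 4.06 ± 0.00176 CPM in WT, a rise of 3.72 ± 0.09 on the log2 scale in the knockout lines (edgeR adjusted p = 2.69e-14). SLC39A14, which also carries iron, rose by 1.99 ± 0.07 to 62.7 ± 4.20 CPM in the knockout lines, against 17.8 ± 0.345 CPM in WT (edgeR adjusted p = 9.5e-13). SLC39A1 and SLC39A7 rose by 1.34 ± 0.04 and 0.94 ± 0.04 (edgeR adjusted p = 8.33e-13 and 7.33e-12). Most tested exporters and importers thus rose, beside 36.8% of all tested genes. Relative to the knockout lines, 2 exporters rose and 5 fell in KO+STAMBP, and 2 rose and 5 fell in the libraries labelled KO+CFLAR. Of the importers, 2 rose and 8 fell in KO+STAMBP, and 2 rose and 9 fell in the libraries labelled KO+CFLAR. Of all tested genes, 40.1% were called higher and 37.8% lower in KO+STAMBP vs KO. In the libraries labelled KO+CFLAR vs KO these shares were 40% and 38%.

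**Figure D5:**
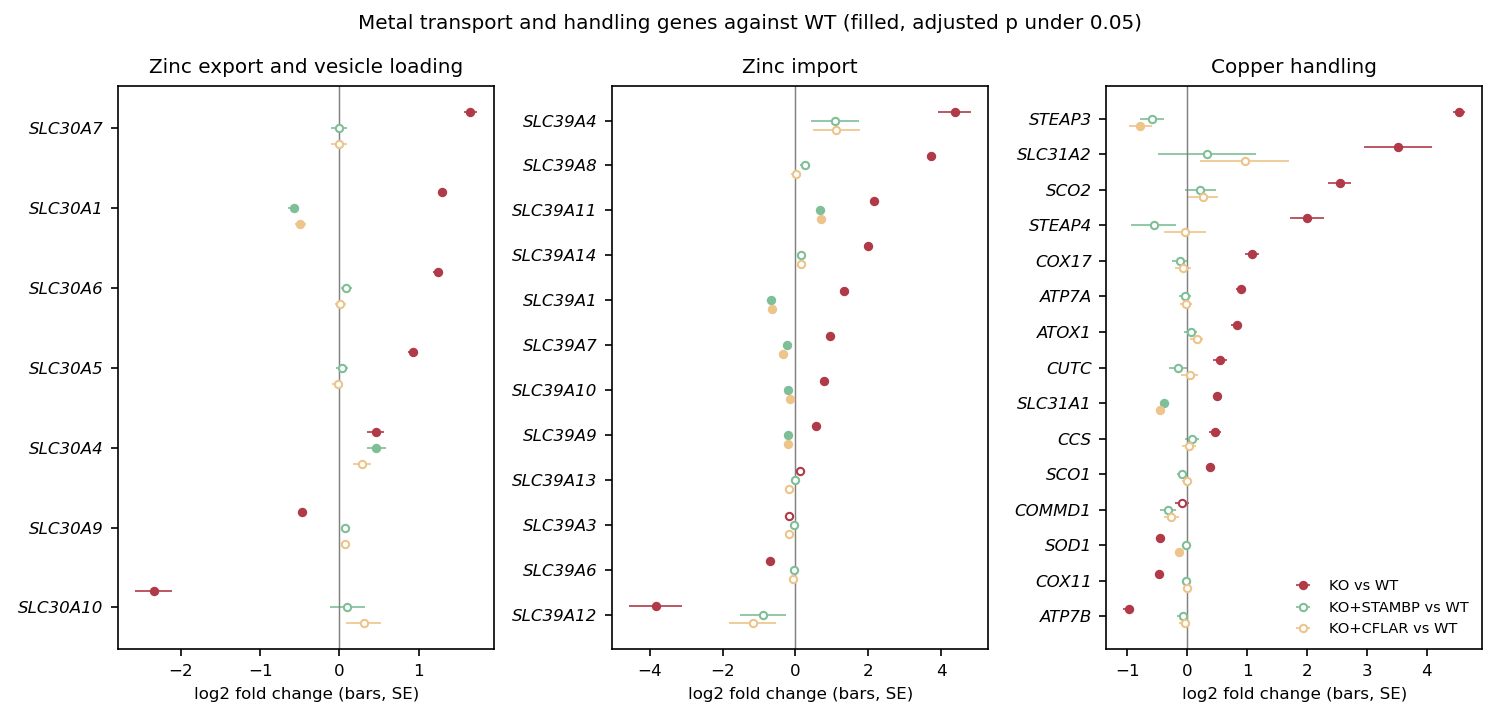
Log2 fold change relative to WT, with SE bars, of tested zinc export, zinc import and copper handling genes in the knockout lines, KO+STAMBP and the libraries labelled KO+CFLAR; filled points had an edgeR adjusted p under 0.05, and genes with 3 or fewer counts in a group are left out. Most points of the knockout lines lie right of 0, with STEAP3 (4.54) and SLC39A8 (3.72) among the farthest, and those of the rescues lie nearer to 0.

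Copper is the other metal that metallothioneins bind in healthy cells. Of 15 copper handling genes, all tested, 11 rose and 3 fell in the knockout lines relative to WT (median log2 change 0.55). Of all tested genes, 36.8% were called higher and 39.4% lower. STEAP3, a reductase of iron and copper, rose by 4.54 ± 0.10 on the log2 scale to 43.3 ± 0.529 CPM in the knockout lines, against 2.11 ± 0.185 CPM in WT (edgeR adjusted p = 1.29e-14), and SCO2, which delivers copper to cytochrome c oxidase, rose by 2.54 ± 0.20 (adjusted p = 2.23e-08). The copper pump ATP7B fell by 0.98 ± 0.09 (edgeR adjusted p = 1.37e-07) and the copper enzyme SOD1 by 0.46 ± 0.04, to 65.3 ± 2.15 CPM in the knockout lines, against 101.6 ± 2.03 CPM in WT (adjusted p = 5.13e-08). Relative to the knockout lines, 3 rose and 11 fell in KO+STAMBP, beside 40.1% and 37.8% of all tested genes. In the libraries labelled KO+CFLAR 3 rose and 11 fell, beside 40% and 38%. Relative to WT, 0 rose and 1 fell in KO+STAMBP, beside 16.4% and 18.5% of all tested genes. In the libraries labelled KO+CFLAR 0 rose and 3 fell, beside 15.8% and 17.9%.

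MT2A is also known to respond to glucocorticoids, so the receptor and its usual targets were listed. Of 10, 9 were tested in KO vs WT, 5 rose and 3 fell (median log2 change 1.56), beside 36.8% of all tested genes called higher and 39.4% lower. The kinase SGK1, the phosphatase DUSP1, the leucine zipper protein TSC22D3 and the transcription factor KLF9 rose by 3.40 ± 0.07, 2.93 ± 0.07, 1.56 ± 0.06 and 3.72 ± 0.17 on the log2 scale (edgeR adjusted p = 3.26e-15, 2.64e-14, 1.17e-11 and 3.69e-11). The 3 that fell, named after their values were seen, were FKBP5, a chaperone of the receptor, by 1.22 ± 0.12, HSD11B2 by 1.17 ± 0.51 and ZBTB16 by 0.57 ± 0.16. FKBP5 had 12.5 CPM in the libraries labelled KO+CFLAR, 12.3 CPM in KO+STAMBP, 9.32 CPM in the knockout lines and 24.4 CPM in WT. In KO vs WT, MT2A therefore moved with these 3 and against the 5 that rose. In the rescues ZBTB16 had 8.41 ± 0.263 CPM (libraries labelled KO+CFLAR) and 9.33 ± 0.270 CPM (KO+STAMBP), against 6.08 ± 0.836 CPM in WT. MT2A was below WT in both. HSD11B2 rested on 30 counts in the knockout lines and 36 in WT (95% interval of the log2 change -2.27 to -0.0747). The part of glucocorticoid signalling in the MT2A values was not tested.

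The genes with the highest Pearson r of log2 CPM with each tested member over the 10 libraries were listed, as a description of libraries that share 5 group means. Pearson r compares neither the level nor the size of a change. GSAP, listed for MTF1, had 12.4 CPM in the knockout lines and 1.39 CPM in WT, against 33.1 and 25.3 CPM for MTF1. ACAA1, listed for MT1X, had 33.2 and 32.2 CPM, against 2.28 and 1.68 CPM for MT1X. For MT2A these were TSN, SPRED2 and CHST3 (Pearson r = 0.980, 0.976 and 0.973 of log2 CPM), and 114 of 14269 genes had r above 0.9. SPRED2 averaged 52.2 ± 0.0675 CPM in the libraries labelled KO+CFLAR, 57.6 ± 2.57 CPM in KO+STAMBP, 47.6 ± 1.32 CPM in the knockout lines and 119 ± 1.24 CPM in WT, high in WT alone. For MT3 they included CALB1 and IGFBP5 (r = 0.997 for each), with 3901 of 14270 above 0.9, and for MTF1 GSAP, XRN1 and VCPIP1 (r = 0.993, 0.992 and 0.992), with 4339 of 14269. For MT1X they were ACAA1, MLF2 and CIAPIN1 (r = 0.966, 0.947 and 0.946), with 45 of 14270. Many genes thus had r above 0.9 with MT3 and MTF1, and few with MT2A and MT1X. MT1X had only 21 to 54 counts per library, and the part of low counts in these numbers was not tested. Among the members, r over the 10 libraries was -0.948 for MT3 and MTF1, 0.767 for MT1X and MTF1, -0.716 for MT1X and MT3, 0.509 for MT2A and MT3, -0.285 for MT2A and MTF1 and -0.00594 for MT1X and MT2A.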

How the data were processed

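The labels describe RNA taken up in Trizol and TruSeq libraries from 1 µg of total RNA. The authors deposited whole-number counts per gene, without normalization, for 60898 rows and 10 libraries. Tools named in the submitters' processing notes are RSEM 1.2.4, fastp 0.20.0 and DESeq2, and the builds are GRCh38 and hg38. Rounding, annotation release, strand setting and read length are not given in the sources used here, so reads of overlapping or antisense genes cannot be told apart.

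From the deposited counts, edgeR 4.0.16 (R 4.3.3) was fitted to all 10 libraries with TMM factors, filterByExpr (21063 genes kept) and a mean per group, leaving 5 residual degrees of freedom, after a test on simulated data. KO is the mean of KO1 and KO2. Calls used a Benjamini-Hochberg adjusted p under 0.05 over all tested genes, and SE is the log2 change divided by the root of F. CPM divides by the total count. The members, the gene lists and the tests were chosen with earlier results of these data known. The genes named are the 8 members, up to 4 per list by smallest adjusted p in KO vs WT, and the 3 most like each tested member (mean of at least 2 CPM). A gene so chosen that is left out of the text is not reported here. The alternatives were DESeq2 1.42.0, median-of-ratios factors, library size alone, no filter, a filter of 50 counts in 2 libraries, the replicate number as a block, only the groups compared, KO1 or KO2 alone as the baseline, shares per kilobase of exon and each library left out. A fit without the libraries labelled KO+CFLAR was chosen after seeing the data.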

Additional observations from a re-analysis of the deposited data

Results flagged for a closer look

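Among the members and the metal, glucocorticoid, cluster neighbour and astroglial lists, the tested difference between the rescues passed the threshold for 4 astroglial genes and for no metallothionein (edgeR adjusted p over all tested genes, libraries labelled KO+CFLAR relative to KO+STAMBP). Cell type markers that are not on the astroglial list were not read for this comparison. SLC1A3 was higher by 0.29 on the log2 scale, with 233.4 ± 6.32 CPM in the libraries labelled KO+CFLAR and 192.5 ± 2.22 CPM in KO+STAMBP (adjusted p = 0.00235). GJA1, a gap junction protein, differed by -0.43, with 327 ± 6.71 CPM in the libraries labelled KO+CFLAR and 445 ± 3.67 CPM in KO+STAMBP (adjusted p = 0.000303). CLU differed by -0.24, with 332 ± 12.2 CPM in the libraries labelled KO+CFLAR and 396 ± 10.2 CPM in KO+STAMBP (adjusted p = 0.0117). SPARCL1, a secreted matrix protein, differed by -0.41, with 51.4 ± 1.57 CPM in the libraries labelled KO+CFLAR and 68.8 ± 3.01 CPM in KO+STAMBP (adjusted p = 0.0162). All 4 differences had the same direction in each library pair between the groups (SD, n = 2 per group).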

How the results depend on the processing

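Few counts limit these results: apart from MTF1, no member exceeded 112 counts in a library. MT2A (KO vs WT) stayed called in every fit that left out a library (log2 -1.62 to -1.30, edgeR adjusted p = 2.5e-05 to 0.00112), as did MTF1 (0.52 to 0.60). Scaled by library size alone, the median log2 change of all genes in KO vs WT was -0.22, against -0.04 with TMM. MT2A in KO+STAMBP vs KO then turned to 0.17. The cause was not tested for this or any change below.

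With the filter of 50 counts, MT1X and MT3 were not tested, and 1 member was called in KO+STAMBP vs KO and 1 in the libraries labelled KO+CFLAR vs KO, in place of 3 each. In the libraries labelled KO+CFLAR vs WT, 1 member in place of 2 was called with DESeq2, with that filter and with the replicate block, and 1 to 2 when a library was left out. With only the groups compared, 2 members were called in KO+STAMBP vs WT (MT3 with adjusted p = 0.0417). Over all genes, the difference between the rescues held 229 calls, 364 with DESeq2, 780 without the filter and 27 to 313 when a library was left out (27 and 29 without KO+STAMBP replicates 1 and 2, and 52 without KO+CFLAR replicate 1). KO1 vs KO2 held 33 calls, 251 without the filter and 20 to 58 when a library was left out (20 without KO2 replicate 2 and 58 without KO1 replicate 2). Leaving out both libraries labelled KO+CFLAR changed no call of a member. Per kb of exon, MT2A made up 47.1% of the metallothionein level in KO+STAMBP and 63.8% in WT.

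Uncalled values near 0 changed sign when a library was left out: MT2A in KO+STAMBP vs KO (-0.30 to 0.19), MT1X in KO+STAMBP vs WT (-0.21 to 0.037), MTF1 in KO+CFLAR vs WT (-0.049 to 0.10), MTF1 and MT2A between the rescues (-0.0047 to 0.15 and -0.42 to 0.072), and MT2A, MTF1 and MT1X in KO1 vs KO2 (-0.043 to 0.15, -0.14 to 0.021 and -0.090 to 0.62).

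Over all tested genes, same-numbered libraries did not deviate together (correlations of -0.0209 to 0.0719 over 10 pairs of groups). A correlation over all genes cannot exclude a shared effect on some of them, so pairing by number stays undecided. With the replicate block, MT1X in KO+STAMBP vs KO was -0.68 (edgeR adjusted p = 0.0503) and MT3 in the libraries labelled KO+CFLAR vs WT had adjusted p = 0.0637. MT1X in KO+STAMBP vs KO also lost its call by library size (adjusted p = 0.136), without the filter (0.0606) and against KO2 alone (0.125). MT1X in KO1 vs WT, at adjusted p = 0.0542, was called with median-of-ratios factors (0.0475) and without KO2 replicate 1 (0.044) or 2 (0.0406).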
